A study of Rattus norvegicus with 8 samples.

Results

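The genes described here are 10 genes of microglia and complement in the rat hippocampus: Trem2, Tyrobp, Csf1r, Cx3cr1, Itgam, Aif1, Ctss, C1qa, C1qb and C3. They were found through the gene name printed for each probe of a custom array, which gave 15 spots among 15207 spots that are not controls. After a filter on dim spots, and with 1 spot taken per gene, all 10 remained among 9440 genes and unnamed probes. RNA of whole hippocampi was taken from rats aged 2 months. The 4 PNFLX samples came from rats that had received fluoxetine, a serotonin reuptake inhibitor, at 10 mg/kg as pups from postnatal day 2 to day 21, and the 4 control samples from rats given a 5% sucrose vehicle over the same days. Strain and sex are not given in the sources used here, and nothing in them says whether a sample came from 1 animal or from several. The p-values therefore measure only the spread between these samples, which may be technical.

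Microglia are the resident macrophages of brain tissue. They depend on the receptor tyrosine kinase Csf1r for survival, sense neuronal fractalkine through Cx3cr1, and bind lipids and cell debris through Trem2, which signals by way of its adaptor Tyrobp. In the postnatal hippocampus they also remove synapses, and C1q, C3 and the complement receptor 3 chain Itgam take part in that removal. In a whole-tissue sample, fewer cells of a type and less RNA per cell cannot be told apart.

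The signal of each gene came from DNA probes of 60 bases, of which 11 different ones covered the 10 genes. Probes of Trem2, Tyrobp, C1qb and Itgam were each laid down at 2 places on every array with the same bases, so each array measured them once more; these, the probe of C3 and both probes of Csf1r are printed because the results turn on them. Letters run 5′ to 3′, in lower case. Capitals mark AATAAA, the usual polyadenylation signal, which 2 of the 11 probes hold against 3.81% of the 13267 different probe sequences on the array. The probes of Itgam, C3 and Csf1r in row 147 are given whole, and the others by a stretch of 30 bases.
Trem2, bases 1 to 30: gagcaggaatactggtgtgctgcatctgcg
Tyrobp, bases 24 to 53: gactcccgctggAATAAAtatccacagagt
C1qb, bases 31 to 60: tgtagatgttacagaatgggtaAATAAAct
Itgam: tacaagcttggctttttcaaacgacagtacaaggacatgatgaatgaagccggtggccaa
C3: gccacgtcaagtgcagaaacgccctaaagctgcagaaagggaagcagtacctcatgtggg
Csf1r, spot row 147: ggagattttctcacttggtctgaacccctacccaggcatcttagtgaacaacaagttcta
Csf1r, spot row 115, bases 1 to 30: tttctccatcctattcccattttaaaaaac
The deposited files place these probes on the rat assembly rn4: Trem2 at chr9:8059065-8059124, Tyrobp at chr1:85447221-85447280, C1qb at chr5:155657575-155657634 and its partner C1qa close by at chr5:155672806-155672865. The probe of C3 is placed at chrUn:64513437-64513496, among unassigned sequence. The listed ranges of Itgam (chr1:187534913-187535446), Aif1 (chr20:3715789-3716370) and Csf1r (chr18:57177463-57178164) are 534, 582 and 702 bases long, longer than the probe itself. The spot of Csf1r in row 115 has no position, Cx3cr1 is at chr8:125053829-125053888 and Ctss at chr2:190429228-190429287. No exon annotation of this build was used.

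Values below are log2 of the scanner's processed signal minus the 75th percentile of the same array, so 0 is the level of a fairly bright probe, and each value belongs to 1 spot. Levels of different probes were not compared with each other. The 75th percentile signal ranged from 654 to 941 between arrays, and 70.5% to 77.9% of probes were well above background. A single slide carried all 8 arrays. Its slide row 1 held the controls and slide row 2 the PNFLX samples, and an effect of the slide row cannot be told apart from one of treatment. Each array had 192 rows of spots, and toward both ends the median difference between groups moved away from 0, to 0.81 in row 3 and 0.35 in row 181. For that reason the spot row of each probe is given beside its result.

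Of 17 microglia markers listed for this tissue, which include all of the 10 genes but C3, 14 were on the array and 13 passed the filter, 12 of them well above background on all 8 arrays. Among the 15 spots of the 10 genes, 12 were well above background on every array. The spots of Itgam and the spot of Csf1r in row 115 missed that mark on 1 PNFLX array each. None was saturated or flagged as an outlier by the scanner software. The 11 probe sequences held 38.3% to 55.0% G and C, against a median of 45.0% over the array.

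No gene of the 10 passed the test of PNFLX against control. In limma, with Benjamini-Hochberg adjustment over all 9440, the smallest adjusted p was 0.157, for C3, while 48 of all 9440 (0.508%) passed the threshold of 0.05. At an unadjusted p under 0.05 there were 2 of the 10, C3 and Trem2, against 12.8% of all genes. Both were higher in PNFLX, as were 5.06% of all genes at that threshold. These 2 were also the genes whose groups did not overlap with PNFLX higher, a pattern that 4.12% of all genes had. The 10 split into 5 with a higher and 5 with a lower mean in PNFLX. Their median log2 difference was -0.03, beside -0.04 for all genes.

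**Figure D1:**
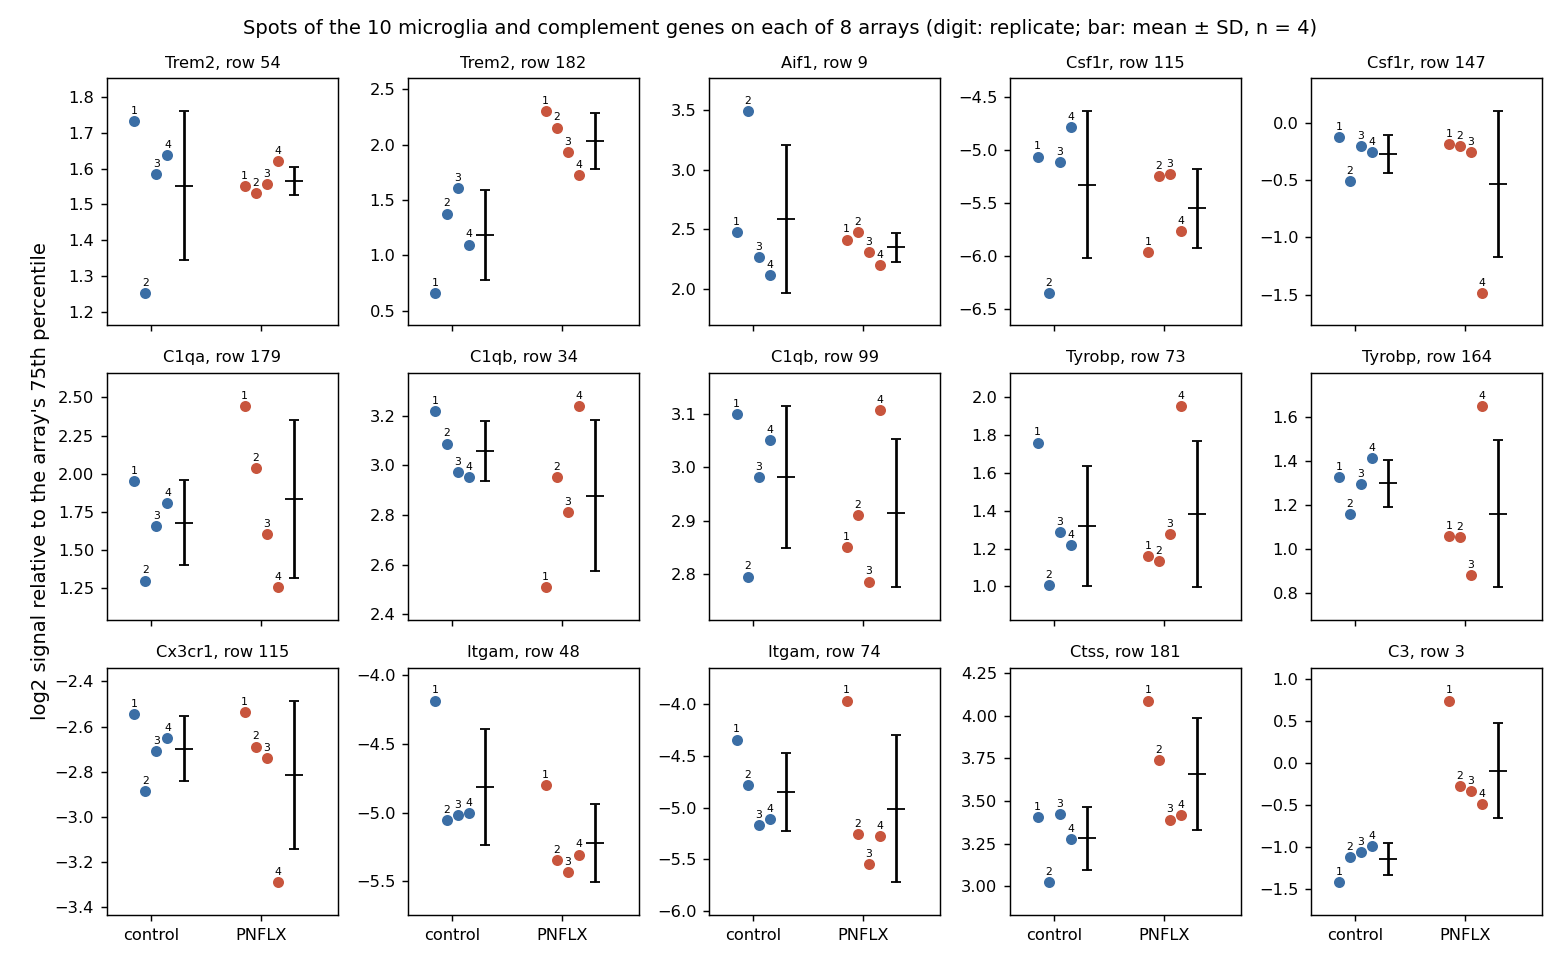
Each panel is 1 spot, with the log2 signal relative to the array's 75th percentile on the vertical axis (the range differs between panels), control arrays in blue and PNFLX arrays in red, the replicate as a digit, and the mean ± SD of 4 arrays as a black bar. The groups are apart for Trem2 in row 182 and for C3 in row 3, and overlap in the other 13 panels.

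Trem2, the lipid and debris receptor, gave a different answer at each of its spots. In spot row 182 the controls measured 0.66, 1.38, 1.61 and 1.1 and the PNFLX arrays 2.30, 2.15, 1.93 and 1.73, so that every PNFLX array lay above every control. The log2 difference was 0.84 (SE 0.23, n = 4 a group; 1.79-fold), with a limma adjusted p of 0.177 and an exact two-sided permutation p of 0.0286, unadjusted, the smallest that 70 groupings allow. In spot row 54, with the same 60 bases, the controls measured 1.73, 1.25, 1.59 and 1.64 and the PNFLX arrays 1.55, 1.53, 1.56 and 1.62. Here the groups overlapped throughout and the difference was 0.01 (SE 0.14). The spot in row 182 stood for the gene because its mean over the 8 arrays, 1.61, was above the 1.56 of the other spot. With the mean of both spots Trem2 differed by 0.43, and with normexp background correction the spot in row 54 was the brighter and the difference was 0.25.

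Tyrobp, the adaptor that carries the signal of Trem2 into the cell, was measured in spot row 73 at 1.76, 1.01, 1.29 and 1.22 in controls and at 1.16, 1.13, 1.28 and 1.96 in PNFLX. In spot row 164 it was 1.33, 1.16, 1.30 and 1.41 in controls and 1.06, 1.05, 0.88 and 1.65 in PNFLX. PNFLX 4 was the highest at both spots, and the groups overlapped. The log2 differences were 0.06 (SE 0.24) and -0.14 (SE 0.18), and the limma adjusted p of the brighter spot was 0.927. The 95% interval of that spot ran from -0.48 to 0.60. The sign of this small difference turned without control 2 (-0.04) or without PNFLX 4 (-0.13).

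Csf1r, the receptor for colony stimulating factor 1 and interleukin 34, had 2 different probes. In spot row 147 the controls were at -0.13, -0.51, -0.21 and -0.26, and PNFLX at -0.19, -0.21, -0.26 and -1.48. PNFLX 4 alone lay below all others. The difference was -0.26 (SE 0.30; 95% interval -0.94 to 0.42; limma adjusted p = 0.734), and 0.06 without that array. The probe in spot row 115 was close to background, from -6.35 to -4.78 in controls and from -5.97 to -5.23 in PNFLX, with a difference of -0.22 (SE 0.35).

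Cx3cr1, the fractalkine receptor, measured -2.54, -2.89, -2.71 and -2.65 in controls and -2.54, -2.69, -2.74 and -3.29 in PNFLX. PNFLX 1 (-2.537) lay just above the highest control (-2.544), and PNFLX 2 and PNFLX 3 lay among the controls. PNFLX 4 was again the lowest, as for Csf1r. The log2 difference of -0.11 (SE 0.18; 95% interval -0.54 to 0.31; limma adjusted p = 0.813) was 0.04 without that array.

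Itgam, the CD11b chain of complement receptor 3, was dim at both of its spots. In spot row 74 it was -4.34, -4.78, -5.17 and -5.11 in controls and -3.96, -5.26, -5.55 and -5.28 in PNFLX, and in spot row 48 -4.18, -5.06, -5.02 and -5.00 against -4.80, -5.35, -5.44 and -5.31. The first array of each group was the highest of its group at both spots. The log2 differences were -0.16 (SE 0.36; limma adjusted p = 0.871) in row 74 and -0.41 (SE 0.24) in row 48. In row 74 the 95% interval, -0.98 to 0.65, spans changes of either sign.

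Aif1, which codes for the actin-bundling protein Iba1 by which microglia are usually stained, measured 2.48, 3.49, 2.27 and 2.12 in controls and 2.41, 2.47, 2.31 and 2.20 in PNFLX. Control 2 lay apart and above the other 7 arrays. With it the difference was -0.24 (SE 0.29; 95% interval -0.90 to 0.42; limma adjusted p = 0.749), and without it 0.06. With normexp background correction it was 1.19, where the median of all genes was -0.39, so the direction of Aif1 depends on the background step.

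Ctss, cathepsin S, is a lysosomal protease that microglia also release. It measured 3.40, 3.02, 3.42 and 3.28 in controls and 4.09, 3.74, 3.39 and 3.42 in PNFLX. PNFLX arrays 1 and 2 lay above all controls and the other two among them. The log2 difference was 0.38 (SE 0.19; 95% interval -0.06 to 0.81; limma adjusted p = 0.452). Its spot row, 181, held 65 tested probes with a median difference of 0.35, nearly that of Ctss itself, and 27 of them differed by more than Ctss. With the row and column medians of the probes' deviations subtracted, the difference of Ctss was 0.01, and with normexp it was -0.03.

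C1qa and C1qb code for chains of C1q, the first component of the classical complement pathway, and lie close to each other in the genome. C1qa measured 1.95, 1.30, 1.66 and 1.81 in controls and 2.45, 2.04, 1.60 and 1.25 in PNFLX, with an SD of 0.52 in PNFLX and 0.28 in controls. The difference was 0.16 (SE 0.27; 95% interval -0.46 to 0.77; limma adjusted p = 0.827), and -0.05 without PNFLX 1. Its spot row, 179, had a median difference of 0.33, and with row and column medians of deviations subtracted C1qa stood at -0.12.

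C1qb, in spot row 34, measured 3.22, 3.09, 2.97 and 2.95 in controls and 2.51, 2.95, 2.81 and 3.24 in PNFLX. In spot row 99 it was 3.10, 2.80, 2.98 and 3.05 against 2.85, 2.91, 2.79 and 3.11. The groups overlapped at both spots, and the differences were -0.18 (SE 0.17; limma adjusted p = 0.683) and -0.07 (SE 0.13). The interval of the first was -0.58 to 0.22. Of the 10 genes, C1qb had the smallest standard error in the test.

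C3, the component on which the complement pathways converge, had the largest difference of the 10. The controls measured -1.42, -1.12, -1.07 and -1.0 and the PNFLX arrays 0.74, -0.28, -0.34 and -0.50. Before scaling, the processed signals were 263, 405, 365 and 328 against 1540, 775, 691 and 660. All 4 PNFLX arrays lay above all 4 controls, and PNFLX 1 stood clearly above the other 3. The log2 difference was 1.06 (SE 0.27; 2.08-fold; 95% interval 0.43 to 1.68), with a limma adjusted p of 0.157 and an exact two-sided permutation p of 0.0286, unadjusted. Its single spot lay in row 3, where the median difference of 58 tested probes was 0.81 and 20 of them differed by more than C3. With row and column medians of deviations subtracted C3 differed by 0.29 (SE 0.24), and its limma adjusted p was 0.650.

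**Figure D2:**
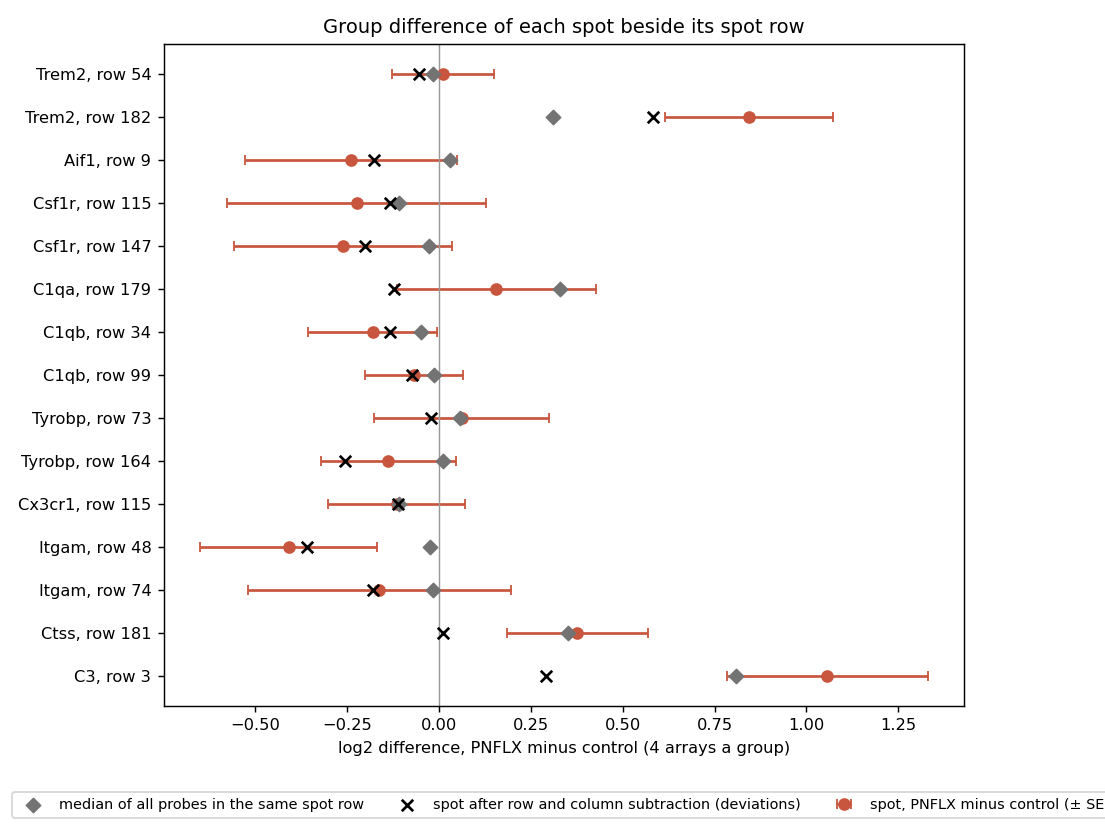
The horizontal axis is the log2 difference, PNFLX minus control, of each of the 15 spots (red, ± SE, 4 arrays a group), with the median of all tested probes in the same spot row (grey diamonds) and the same spot after subtraction of row and column medians of deviations (crosses). C3 at 1.06 stands beside a row median of 0.81 and Ctss at 0.38 beside 0.35, while Trem2 in row 182 at 0.84 stands above its row's 0.31.

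The spots with the 4 highest differences, C3, Trem2 in row 182, Ctss and C1qa, lay in spot rows 3, 182, 181 and 179, and each of those rows had a median difference of 0.31 or more. The row medians of the other 11 spots ran from -0.11 to 0.06. Trem2 in row 182 differed by more than its row: 4 of the 55 tested probes there had a higher difference. After the subtraction of row and column medians of deviations it stood at 0.58 (SE 0.23; limma adjusted p = 0.424 over all genes). After that subtraction 0 of the 10 genes passed, and 30 of all 9440 did.

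Identical spots repeat 1 measurement at another place on the same array. Between its 2 spots, Trem2 differed by 0.83 in the group difference; Itgam by 0.25, Tyrobp by 0.20 and C1qb by 0.11. Row 182 minus row 54 was -1.07, 0.12, 0.02 and -0.54 in controls and 0.75, 0.62, 0.38 and 0.11 in PNFLX for Trem2. Only 1 control value reached the lowest PNFLX value. The exact two-sided permutation p was 0.0571 for Trem2 and 0.229 after adjustment over the 4 genes, with the other three at 0.286 or more before adjustment. Over the 1380 pairs of identical probes on the array the median gap was 0.21, and 11.0% had a gap larger than that of Trem2. In rows 21 to 172 the median gap of 895 pairs was 0.16.

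Levels at the 2 spots moved together over the 8 arrays for Itgam (Pearson r = 0.78), Tyrobp (0.69) and C1qb (0.61), but not for Trem2 (-0.28). The median over the 1380 pairs was 0.55. These correlations describe repeat measurements of 1 RNA sample per array and are given with no test.

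**Figure D3:**
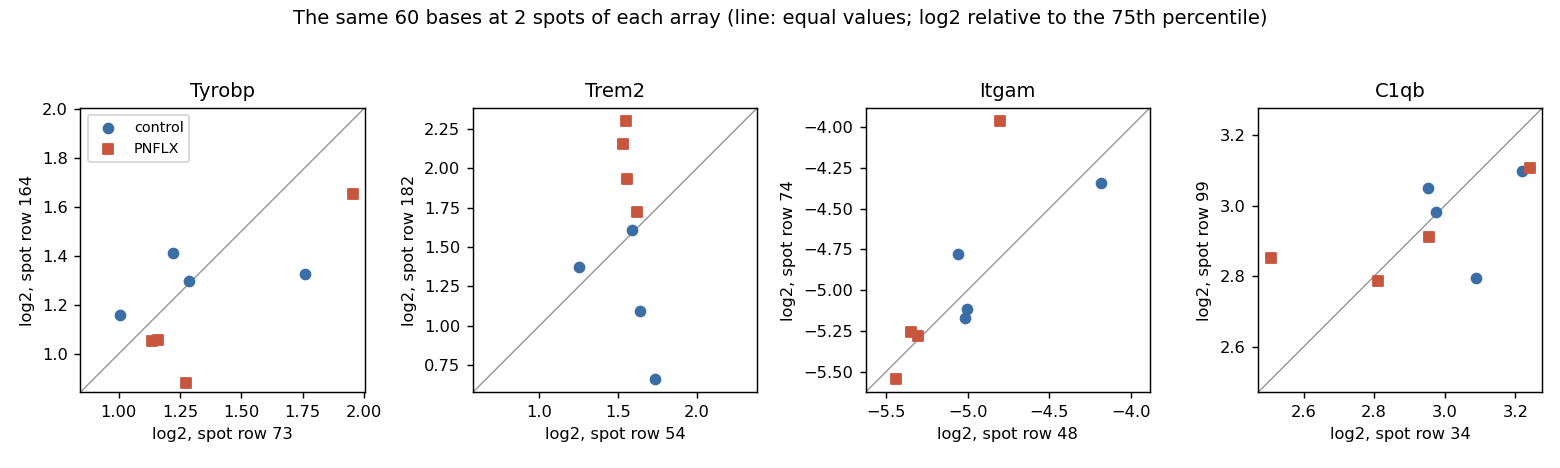
Each point is 1 array, with the log2 level of a gene at one spot on the horizontal axis and at the other spot of the same 60 bases on the vertical axis (control circles, PNFLX squares, line of equal values). Points of Itgam, Tyrobp and C1qb rise along the line, while those of Trem2 spread from 0.66 to 2.30 in row 182 and from 1.25 to 1.73 in row 54.

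To see whether the 10 genes moved together from array to array, each value was taken as a deviation from its own group's mean, and all 45 pairs were correlated over the 8 arrays. The median Pearson r was 0.18, against 0.04 over all pairs of genes. There were 26 positive and 19 negative pairs. An r over 0.5 was found in 14 pairs (31.1%, against 18.3% of all gene pairs), and an r under -0.5 in 9 (20.0%, against 13.6%). No pair passed adjustment: 7 had an exact permutation p under 0.05 within 576 pairings that keep the groups, and the smallest Benjamini-Hochberg value over the 45 was 0.104. The median r depended on the spots used. With only probes well above background on all 8 arrays, which leaves out Itgam, it was 0.04. Without the first and last 5 spot rows, which leaves out C3, it was 0.03. With the mean of a gene's probes it was 0.05.

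Csf1r and Cx3cr1, both receptors that define microglia, had the highest correlation, with r = 0.96 and Spearman's rho = 0.90 (exact permutation p = 0.00694 for each; adjusted 0.104 and 0.0781). Without control 2 and PNFLX 4, the samples farthest from the median of Csf1r, r was 0.70. Within the controls alone it was 0.94 and within PNFLX 0.97. After row and column medians of deviations were subtracted it was 0.98. The other Csf1r probe, near background, had r = 0.36 with Cx3cr1.

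C1qa moved with Ctss (r = 0.92, rho = 0.76, exact permutation p = 0.0139 and 0.0694, adjusted 0.125 and 0.446) and with Cx3cr1 (r = 0.90, rho = 0.93, exact permutation p = 0.00347 each, adjusted 0.104 and 0.0781). Without PNFLX 1 and PNFLX 4 these were 0.86 and 0.81. The spots of C1qa and Ctss lay 2 rows apart, and after the row and column subtraction r was 0.76 for that pair and 0.70 for C1qa with Cx3cr1.

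Partnerships known from biochemistry could be read in the same way. Trem2 in row 182 and its adaptor Tyrobp in row 73 had r = -0.76 and rho = -0.52 (exact permutation p = 0.0434 and 0.238, adjusted 0.279 and 0.744), and -0.85 without controls 1 and 3. With the other Trem2 spot, in row 54, the correlation with Tyrobp was 0.65, so the sign of the relation depends on which of 2 identical spots stands for Trem2. C1qa and C1qb, chains of 1 protein, had r = -0.66 and rho = -0.40 (exact permutation p = 0.184 and 0.406, adjusted 0.552 and 0.769). Without PNFLX 1 and PNFLX 4 r was 0.38, so the negative relation rests on those samples. With C1qb in row 99 it was -0.03.

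The lowest correlation was that of C1qb and C3 (r = -0.89, rho = -0.93, exact permutation p = 0.00694 each, adjusted 0.104 and 0.0781). It was -0.66 without PNFLX 1 and PNFLX 4, and -0.37 with C1qb in row 99. C3 and its receptor chain Itgam had r = 0.66 and rho = 0.29 (exact permutation p = 0.241 and 0.575, adjusted 0.571 and 0.784). Within controls it was -0.95 and within PNFLX 0.96, opposite signs over 4 arrays each.

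**Figure D4:**
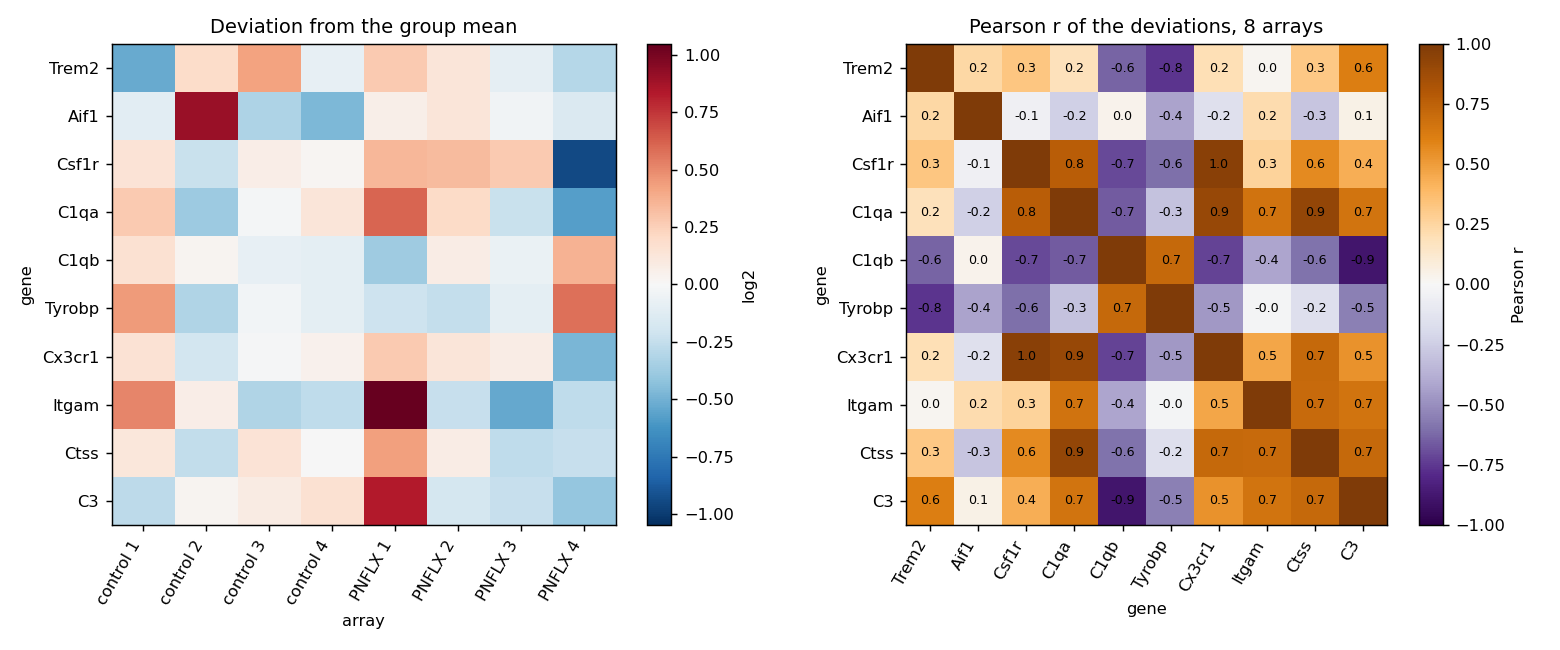
Left, the deviation of each gene (rows) from its group's mean on each array (columns), in log2 units; right, Pearson's r of those deviations for each pair of genes over 8 arrays. All pairs among Csf1r, C1qa, Cx3cr1, Itgam, Ctss and C3 are orange, with r from 0.27 to 0.96, and C1qb and Tyrobp are purple against most of them. Within the controls alone, the r of C3 with each of Csf1r, C1qa, Cx3cr1, Itgam and Ctss was negative. It ran from -0.95 (Itgam) to -0.29 (Ctss).

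Averaged over the 10 genes, the controls deviated by 0.09, -0.01, -0.01 and -0.07 and the PNFLX arrays by 0.33, 0.04, -0.12 and -0.24. PNFLX 1 was the highest and PNFLX 4 the lowest. The log2 deviations were averaged as they stood, so genes of large spread counted most. On PNFLX 1 the largest deviations were those of the dim Itgam (1.05) and of C3 (0.83). C1qb (-0.37) and Tyrobp (-0.22) lay below 0 there, and the remaining genes ran from 0.06 to 0.61. PNFLX 1 was also the highest array for C3 and for the listed genes of meninges and fibroblasts, whose mean level was 0.96 there and -0.24 to -0.02 on the other PNFLX arrays. Over the 8 arrays the deviations of that list correlated with the mean of the 10 genes by 0.68, the highest of the 15 lists read beside them, and its part in that mean was not tested. Without PNFLX 1 the median pairwise r was 0.003, and with row and column medians of deviations subtracted it was -0.04. Of genes outside the 10, Cstf1 (r = 0.99), Dpp3 (0.98), Gas7 (0.97), Zdhhc7 (0.97), Acadl (0.97), Smpd2 (0.97), Stoml2 (0.96) and Pgk1 (0.96) followed this mean most closely over the 8 arrays. Of these 8, all but Cstf1 (row 110) had spots in rows 171 to 183, the part of the array that also holds C1qa, Ctss and the Trem2 spot used. The part of spot position in this likeness was not tested.

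Other genes typical of microglia were balanced between directions. Of 50 tested of the 56 on the array, 25 were higher and 25 lower in PNFLX. Their median was -0.003 (all genes -0.04). Of all genes 0.508% passed, and of these 50, 1 did. That gene was Hpgds, a prostaglandin D synthase of microglia, mast cells and macrophages, which rose in PNFLX as processed here, though not with normexp background correction. It measured -3.81, -4.38, -4.51 and -4.36 in controls and -2.81, -3.20, -2.65 and -2.98 in PNFLX. The log2 difference was 1.36 (SE 0.20; 2.56-fold; limma adjusted p = 0.0317), and the groups did not overlap. The call of Hpgds ended in 14 of 23 other settings, among them normexp, with which the difference was -0.39 (adjusted p = 0.694), the median of all genes there being -0.39 too. Its spot row, 179, had a median difference of 0.33, and after row and column medians of deviations were subtracted Hpgds stood at 1.07 (adjusted p = 0.0796). The next smallest p-values of the list were those of Cd48 (0.68, SE 0.19, limma adjusted p = 0.192) and the inhibitory Fc receptor gene Fcgr2b (0.69, SE 0.26), neither of which passed.

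The rest of the complement system was represented by 32 tested genes of 43 on the array, 18 higher and 14 lower in PNFLX, with a median of 0.09 and 0 called in limma. At an unadjusted p under 0.05 there were 7 of the 32, beside 12.8% of all genes. Nearest to the threshold were 2 genes lower in PNFLX, the lectin gene Mbl1 (-0.59, SE 0.11, limma adjusted p = 0.0766) and Cfi, the protease that cuts C3b (-1.64, SE 0.34, adjusted p = 0.0914). Both were dim, and Cfi was well above background on only 4 of 8 arrays, the fewest the filter allows. The mean of Cfi was -5.25 in controls and -6.88 in PNFLX. On each PNFLX array the lowest level well above background, from -6.60 to -4.77, was higher than that PNFLX mean. The size of the Cfi difference is therefore uncertain. The ficolin gene Fcnb was at 0.71 (SE 0.25), with a limma adjusted p of 0.301.

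Ligands and signalling partners of Csf1r, Cx3cr1 and Trem2 gave 11 higher and 12 lower of 23 tested (27 on the array). Their median was -0.08, and 0 were called in limma. An unadjusted p under 0.05 was found for 2 of the 23, beside 12.8% of all genes. Sirpa, a receptor of the don't-eat-me signal CD47, stood at 0.41 (SE 0.15, limma adjusted p = 0.321) and Cd200, a neuronal ligand that restrains microglia, at 0.49 (SE 0.20). Apoe, a lipoprotein that Trem2 binds, was at -0.25 (SE 0.12) and Plcg2, a phospholipase downstream of Trem2, at -0.30 (SE 0.17). Genes of activated and phagocytic microglia were 19 higher and 18 lower of 37 tested (48 on the array), with a median of 0.01 and 0 called in limma. Beside 12.8% of all genes, 5 of the 37 had an unadjusted p under 0.05. Of these Ptgs2 was at 0.91 (SE 0.27, limma adjusted p = 0.216) in spot row 6, Lgals3bp at -0.56 (SE 0.17), Cd63 at 0.41 (SE 0.14) and Cd9 at 0.46 (SE 0.16).

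Cells that share genes with microglia were measured beside them. Of 12 markers of border macrophages, 9 were on the array and 4 were tested, 2 higher and 2 lower, with a mean level from -2.37 to -2.03 in controls and from -2.56 to -1.93 in PNFLX. Mrc1, Cd163 and F13a1 did not pass the filter on dim probes. Of 20 genes of monocytes and neutrophils 15 were on the array and 5 were tested, 3 higher and 2 lower in PNFLX. Their mean level was -4.73 to -4.13 in controls, -3.35 and -3.15 on PNFLX arrays 1 and 3, and -4.59 and -4.36 on arrays 2 and 4. S100a8 was at a difference of 1.25 (SE 0.75), S100a9 at 0.92 (SE 0.67), Mmp9 at -0.11 and Vcan at -0.12, while Ccr2, Mpo and Csf3r did not pass the filter. Lymphocyte genes had 10 tested of 18 on the array, 6 higher and 4 lower in PNFLX, or 4 and 6 without PNFLX 3. The T cell receptor complex genes Cd3e (0.65, SE 0.27) and Cd3g (0.88, SE 0.72) were among those with a higher mean and did not pass. In the other direction Cd8b fell by 1.19 on the log2 scale (SE 0.18, limma adjusted p = 0.0337), and 14 of 23 other settings ended that call. This value is that of the brighter of its 2 probes. With the mean of both, Cd8b differed by -0.77 (limma adjusted p = 0.0817). The brighter probe lay in spot row 179, where the median difference was 0.33. With row and column medians of deviations subtracted Cd8b stood at -1.51 (limma adjusted p = 0.0128). Blood genes had 7 tested, 6 higher and 1 lower in PNFLX, none called, and vessel genes 17 tested, 9 higher and 8 lower. Their 1 call was Emcn in spot row 1 (2.30, SE 0.33, limma adjusted p = 0.0317), lost in 13 of 21 other settings. Over all genes 0.508% were called. Emcn was well above background on 1 control array and 4 PNFLX arrays, so it passed the filter on dim probes through the PNFLX arrays. The median difference of its spot row was 1.25. With row and column medians of deviations subtracted Emcn stood at 1.26 (limma adjusted p = 0.2425). The next smallest p was that of Notch3 in spot row 183, lower in PNFLX with no overlap of the groups but not called (-1.83, SE 0.45, limma adjusted p = 0.139). The part of these cells in the values of the 10 genes was not tested.

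**Figure D5:**
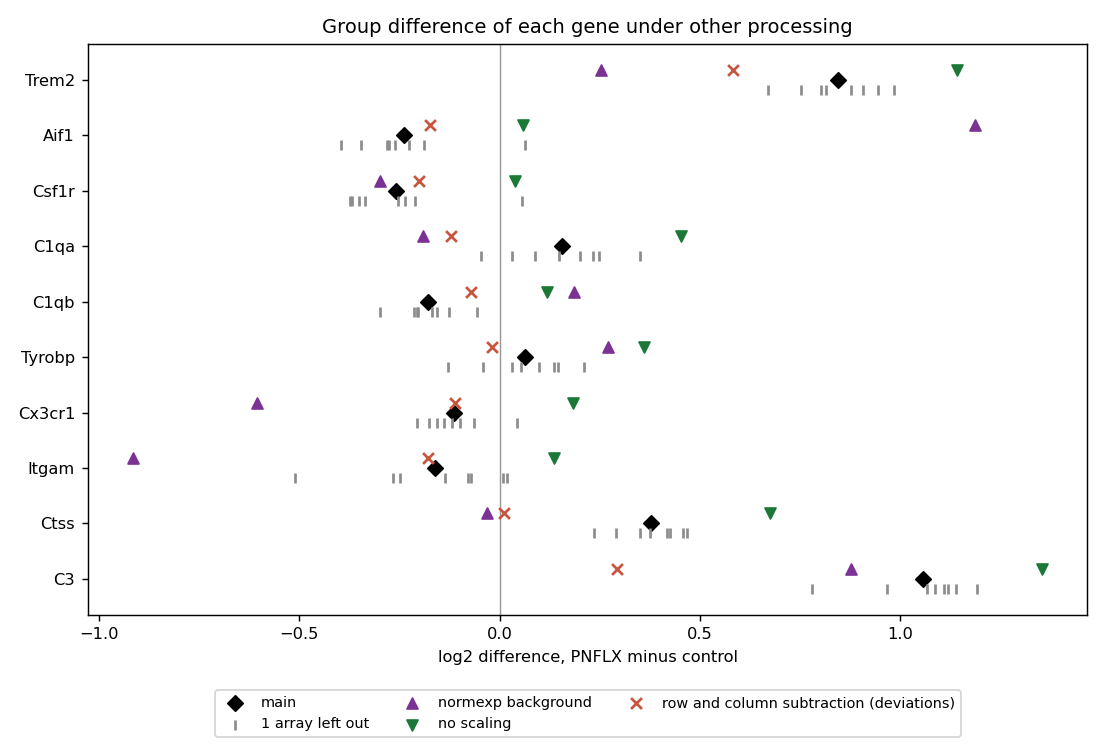
The log2 difference of each gene, PNFLX minus control, under the settings of the main test (black diamonds), with 1 array left out (grey bars), and under normexp background correction, no scaling between arrays and the row and column subtraction (coloured marks). Trem2 and C3 stay above 0 throughout, between 0.25 and 1.14 and between 0.29 and 1.35, and the other 8 genes fall on both sides of 0.

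The promoters of 8 of the 10 genes were found in a RefSeq table of assembly GRCr8, as windows of 300 bases from 250 before the start to 50 after it. They were searched on both strands for GAGGAA, the core letters bound by PU.1, the transcription factor of macrophages and microglia. Those letters stood in 5 of the 8 windows, those of Csf1r, Itgam, C1qb, Ctss and Trem2, and not in those of C1qa, C3 and Cx3cr1. Of 33469 windows of the same length, 27.6% held them. Each of the 8 genes entered by its first listed window, while the 33469 were not reduced to a single window per gene. Csf1r, Itgam and C1qb held 2 matches each. A match of so few letters is a description of the window and no evidence of binding.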

How the data were processed

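Per the labels' protocols, total RNA of whole hippocampi was primed with oligo-dT, labelled with Cy3 and hybridised to single-colour arrays of a custom design. Groups and replicate numbers came from the source names. The sample descriptions give end days of treatment of 21 to 28, in step with the sample order, where the protocol gives day 21; the protocol was followed. Agilent Feature Extraction 10.5.1.1 made the intensity values, with spatial and multiplicative detrending and surrogate values for low signals, per the file headers. The authors deposited a log2 table too. To within 0.00241 it equalled the scaled values used here, less the median of each probe, and served as an alternative. Its column medians were 0.06, -0.05, 0.04 and 0.04 in controls, and -0.04, -0.07, 0.10 and -0.13 in PNFLX.

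Signals were taken as log2 and reduced by the array's 75th percentile, found over the 15207 spots other than controls. Outlier-flagged spots (521) were left out, and 11600 probes were kept that stood well above background on 4 or more of the 8 arrays. Probes were named through a RefSeq table of GRCr8 (14323 matched, 11717 genes), and the brightest probe of each gene was taken. The groups were tested over all 9440 by limma 3.58.1 under R 4.3.3, threshold 0.05; SE is its moderated standard error. The number of arrays limits the precision. Single values were tested by exact permutation. The position subtraction takes the median deviation of each array's spot rows and columns, where a deviation is from a probe's mean over the 8 arrays; it was chosen after seeing the data, because medians of levels depend on which probes share a row. The limma test was checked on simulated data with independent noise for each gene and no effect of spot row or slide row. The position subtraction was checked on a shift placed in the first spot rows. The correlations between genes were not checked on simulated data.

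The genes, lists and tests were chosen with earlier results of these data known. In every list, the genes named are those of smallest p, up to 4, a few of which are not reported here; the 8 genes most like the mean deviation are named by r. The alternatives were scaling, background, filters, flags, probe choice, spot position, the deposited table, a replicate block, eBayes with trend, and each array left out. Equal replicate numbers share a column of the slide. The deviations of same-numbered arrays correlated by 0.01 to 0.09, and those of unlike-numbered arrays of the groups by -0.08 to 0.04. The highest values were those of the arrays numbered 2 and of those numbered 3. The labels name no pairs, so the numbers were not taken to pair the samples in the main test.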

Additional observations from a re-analysis of the deposited data

Results flagged for a closer look

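Among the 10 genes, 30 groups of 4 arrays (each spot in each group) were examined for an array far from the other 3 by Dixon's ratio of the gap to the range. Chance alone exceeds its 95% critical value in about 1 group in 20, and 2 did. Csf1r in spot row 147 was at -1.48 on PNFLX 4 against -0.26 to -0.19 on the other PNFLX arrays, a ratio of 0.946. Itgam in spot row 48 was at -4.18 on control 1 against -5.06 to -5.00 on the other controls, a ratio of 0.938. Its identical spot in row 74 also had its highest control value, -4.34, on that array.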

How the results depend on the processing

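In each of the settings tried, 0 of the 10 genes passed limma's threshold; the smallest adjusted p was 0.0615, for C3 without scaling between arrays, and 2 genes had an exact permutation p under 0.05 before adjustment. The differences of Trem2 and C3 stayed above 0 in every setting that gave one, with Trem2 taken from the spot that stood for it. The Trem2 spot in row 54 by itself was at -0.05 with medians of deviations subtracted and at -0.28 with medians of levels subtracted. The differences of the other 8 genes changed sign in at least 1 setting, none of them past the threshold, and the cause was not tested. Without scaling, where the median of all genes moved to 0.26, Aif1 was at 0.0572, Csf1r at 0.0372, C1qb at 0.117, Cx3cr1 at 0.182 and Itgam at 0.135, and 108 genes passed over the whole array. With normexp (median -0.39) Aif1 was at 1.19, C1qa at -0.192, Ctss at -0.0325 and Hpgds at -0.392, and 27 genes passed; C1qb was at 0.186, taken there from its spot in row 99 in place of row 34. With the mean of a gene's probes Tyrobp was at -0.0371. Subtracting medians of row and column levels gave C1qa -0.0403 and 15 calls over the array; Tyrobp was at -0.286, from its spot in row 164, and at -0.147 in the spot of the main test, row 73. Medians of deviations gave C1qa -0.122, Tyrobp -0.0198 and 30 calls. With 1 array left out, Aif1 ranged from -0.397 to 0.0623 (without control 2), Csf1r from -0.375 to 0.0568 (without PNFLX 4), C1qa from -0.0468 (without PNFLX 1) to 0.350, Tyrobp from -0.128 (without PNFLX 4) to 0.210, Cx3cr1 from -0.207 to 0.0439 (without PNFLX 4) and Itgam from -0.510 to 0.0171 (without PNFLX 3).

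Over all genes, limma called 48 in the main setting, 73 with quantile normalization, 26 with no filter on dim probes, 25 with probes well above background on all 8 arrays, 25 with no filter and flagged spots kept, 78 with every probe on its own, and 14 to 60 with 1 array left out. Without the first and last 5 spot rows it called 0 of 9083; 1092 of them had an unadjusted p under 0.05. C3 had no value there, and Itgam had none with the filter on all 8 arrays. A replicate block, which treats equal replicate numbers as pairs, left 5 calls over all genes, and 0 of the 10. The median pairwise r of the 10 genes, 0.18 in the main setting, ranged from 0.003 to 0.41 with 1 array left out and from -0.04 to 0.32 in the other settings.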

Other observations

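Beside the genes of microglia and complement, lists of the other cells of the tissue were read as background, as counts with no test of the list. Genes of meninges and fibroblasts were higher in PNFLX in 14 of 16 tested, with a median of 0.29. Where 12.8% of all genes had an unadjusted p under 0.05, 3 of these 16 did, and none passed in limma. Their mean level ran from -0.54 to 0.21 in controls and was 0.96, -0.02, -0.24 and -0.09 in PNFLX. Without PNFLX 1, which alone was high, 9 were higher and 7 lower, with a median of 0.10. Choroid plexus genes were lower in 8 of 8 tested, with a median of -0.32, and none passed either (0 at an unadjusted p under 0.05). Their mean level was -3.74, -3.13, -2.65 and 0.49 in controls and ran from -3.44 to -1.85 in PNFLX. Control 4 alone was high, and without it the direction turned, with 6 higher and 2 lower and a median of 0.31. Leaving out 1 array was applied to these lists after seeing the data. Neuronal genes were lower in 15 of 19, oligodendrocyte genes in 12 of 15, astrocyte genes in 10 of 17 and genes of hippocampal fields in 7 of 14, where 54.5% of all genes were lower, and none of these passed in limma (3, 1, 2 and 4 at an unadjusted p under 0.05). These cells make up the tissue in which the 10 genes were measured; their part in the values of the 10 genes was not tested.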
